A study of Homo sapiens and Mus musculus with 18 samples.

Results

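The 38 genes described here encode parts of tight junctions and desmosomes, proteins that set the apical side of epithelial cells, and surface proteins typical of epithelia. They were picked by name from the known parts of these structures: 16 claudins, 7 other tight junction genes, 6 desmosome genes, 3 polarity genes and 6 apical or epithelial surface genes. These genes were chosen with earlier results of these data known, so their shares and medians beside those of all genes are descriptive. They make up 38 of the 63677 gene identifiers in a first set of count files with 1 library each, called the one-library files here, and 38 of the 56299 identifiers in a second set, a table of human libraries. All 38 were measured in both sets, and all 38 passed the filter on low counts in both. Without the smooth muscle library 35 passed it in the one-library files, and the 3 that then failed were CLDN2, CLDN16 and CLDN23.

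The libraries came from WA09 cells, an established human embryonic stem cell line, that were first turned into splanchnic mesoderm (the mesoderm that lines the inner organs) with WNT3A and BMP4. The study profiled an epithelial and a mesenchymal form of mesothelium, both made from these cells. MesoT, the mesenchymal form, had gone on in 25 ng/ml WNT3A, 50 ng/ml BMP4 and 4 µM all-trans retinoic acid and was taken at day 18 or day 22. MesoT FCS was MesoT grown to passage 4 in 10% fetal bovine serum with 8 ng/ml FGF2. MLC, the epithelial form, was splanchnic mesoderm replated without FGF2 and activin A in 20 µM SB431542, an inhibitor of TGF-beta type I receptors, with 4 µM retinoic acid and taken at 18 days in total. MesoT-derived MLC was MesoT replated in that same MLC medium. The smooth muscle culture was splanchnic mesoderm left in culture, and gave 1 library. Each of the other groups had 2 libraries, and all groups come from 1 cell line.

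The one-library files held MesoT day 18, MLC, MesoT FCS and smooth muscle with 21148477 to 70679258 counts per library, and MLC was the deepest group. The 38 genes took 0.194% to 0.207% of the counts in MesoT FCS, 0.261% to 0.295% in MesoT day 18, 0.411% to 0.417% in MLC and 0.551% in smooth muscle. The human table held MesoT day 18, MesoT day 22 and MesoT-derived MLC with 24137663 to 31435480 counts. The day 18 samples were thus counted in both sets. In CPM the table stood higher by a median of 0.339 (replicate 1) and 0.260 (replicate 2) on the log2 scale. This median shift was removed before the 2 countings were compared. Of 36 of the junction and apical genes with enough counts, 27 then agreed within 0.5 on the log2 scale in both replicates, against 57.2% of 22110 genes compared. With the shift removed, F11R (2.37 and 2.25 times as much in the table), OCLN (2.28 and 3.02 times) and CLDN16 (29.2 and 10.7 times) were among the 9 that did not. Levels are therefore compared only within a set, save in 1 alternative fit that puts the table's day 18 counts beside the other one-library files. All levels are counts per 1000000 counts of effective library size (CPM), and a gene's level is compared between groups, not with another gene.

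Mesothelial marker genes were checked first. WT1, a transcription factor of mesothelium, stood at 25.9 and 46.2 CPM in the MesoT day 18 replicates of the one-library files, at 217 and 148 in MLC, at 5.58 and 3.40 in MesoT FCS and at 0.0407 in smooth muscle. UPK3B, a surface protein of mesothelium, stood at 15.1 and 34.4, at 55.8 and 38.1, at 0.714 and 0.0558, and at 1.14 CPM in the same order. Of 10 mesothelial markers, 9 had a group mean of at least 1 CPM in MesoT day 18, 10 in MLC, 7 in MesoT FCS and 9 in smooth muscle. Against MesoT day 18, MLC had 4 of the 10 higher and 0 lower past the threshold. MesoT FCS had KRT19 higher and WT1 and UPK3B lower. Smooth muscle had UPK1B, CALB2 and KRT19 higher and WT1 and LRRN4 lower. The shares of all genes are given with each comparison below. The smooth muscle library held all 8 smooth muscle markers at 1 CPM or more, but none of them differed from MesoT day 18 past the threshold, and ACTA2 stood at 268 CPM there against 515 and 80.6 CPM in MesoT day 18. It also held 9 of 10 markers of stratified epithelium above MesoT day 18, while 5.08% of all genes tested were higher. The 10 markers summed to 3975 CPM against 96.8 to 166. DSG3 and KRT6A passed the filter on low counts through this library alone, which leaves 7 of the 9. KRT5 and KRT6A, keratins of stratified epithelium, were at 870 and 741 CPM in it and at most at 0.307 CPM in MesoT day 18.

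Claudins are membrane proteins whose strands seal the space between neighbouring epithelial cells or leave charge-selective pores in it. Occludin, tricellulin and MARVELD3 share those strands, F11R (JAM-A) lies beside them, and the scaffold proteins ZO-1, ZO-3 and cingulin tie them to actin. Desmosomes join cells through the cadherins DSG2 and DSC2, which plakoglobin, plakophilins and desmoplakin link to intermediate filaments. CRB3, PARD3 and PARD6B belong to complexes that mark the apical side. When epithelial cells take on mesenchymal form, SNAI and ZEB repressors are known to bind the sequence CACCTG in promoters of junction genes such as that of E-cadherin.

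RefSeq promoter windows (build GRCh38.p14, 250 bases before a start) matched 24 of the 38 genes, with 37 windows. CACCTG was found on either strand in 12 of 37 windows (32.4%), belonging to 11 genes, against 17.5% of all 35116 windows of that length. At least 2 matches were in 5 of 37 windows (13.5%) against 2.53% of all windows. Those windows belonged to CRB3 with 5 matches, CLDN7 with 4, and DSP, JUP and DSG2 with 2 each. Of the 14 genes with a window that were lower in MesoT FCS than in MesoT day 18, 8 held the motif (DSP, TJP1, TJP3, CRB3, RAB25, DSC2, CLDN7 and OCLN). Of the 9 genes with a window that were not past the threshold in that comparison, 3 held it (DSG2, CLDN18 and JUP). These counts are per gene, and some genes have several windows, while the 17.5% is per window. The share of all genes, or of all lower genes, that hold the motif was not computed. A tie between the motif and the lower levels was not tested. TGANTCA, the motif of AP-1 factors, was in 5 windows (13.5%, against 6.57% of all). AACCGGTT, the motif of grainyhead factors, and GGAATG, that of TEAD factors, were in 0 of the 37 windows, against 0.117% and 11.9% of all. A match here describes the letters and is not a measured binding site.

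The windows of 3 genes are printed 5' to 3' on the strand of the gene, with CACCTG or its reverse complement CAGGTG in capitals. They show 2 genes that hold the motif and were lower in MesoT FCS (RAB25 and DSP), and the 1 gene that was higher (CLDN11, first of 2 windows). The RAB25 window is chr1:156060910-156061159 (plus strand) with 1 match, which starts 41 bases before the start. The DSP window is chr6:7541421-7541670 (plus strand) with 2 matches at 178 and 85 bases, and the annotation also places the antisense RNA DSP-AS1 over it. The CLDN11 window is chr3:170418618-170418867 (plus strand) with 0 matches.
RAB25: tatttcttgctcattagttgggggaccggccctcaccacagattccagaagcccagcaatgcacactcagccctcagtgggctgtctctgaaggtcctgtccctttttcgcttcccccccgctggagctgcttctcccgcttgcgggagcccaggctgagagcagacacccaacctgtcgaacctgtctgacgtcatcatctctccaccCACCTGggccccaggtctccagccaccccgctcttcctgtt
DSP: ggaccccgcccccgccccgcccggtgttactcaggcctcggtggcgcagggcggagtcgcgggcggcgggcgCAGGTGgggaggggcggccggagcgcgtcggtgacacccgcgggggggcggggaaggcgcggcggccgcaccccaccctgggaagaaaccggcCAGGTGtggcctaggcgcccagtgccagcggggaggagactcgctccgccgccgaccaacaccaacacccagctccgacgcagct
CLDN11: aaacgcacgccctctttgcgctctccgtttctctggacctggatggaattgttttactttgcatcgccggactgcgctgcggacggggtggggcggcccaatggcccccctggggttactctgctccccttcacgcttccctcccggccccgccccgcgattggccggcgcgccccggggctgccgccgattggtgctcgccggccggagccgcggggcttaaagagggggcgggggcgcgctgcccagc

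In serum-passaged MesoT (MesoT FCS) 24 of the 38 genes were lower than in MesoT day 18 and 1 was higher by edgeR's quasi-likelihood test with Benjamini-Hochberg adjustment over all genes (adjusted p under 0.05). Over all 23049 genes tested, 14.4% were lower and 13% higher (27.3% in either direction). The median log2 fold change was -2.71 over the 38 genes and -0.16 over all genes. With the 3 genes that had no count in MesoT FCS set at their bound, the median of the 38 was -2.62. All of the 7 other tight junction genes were lower, as were 7 of 16 claudins, 3 of 6 desmosome genes, 2 of 3 polarity genes and 5 of 6 apical genes. In libraries of whole cultures, fewer cells of a type and less RNA per cell cannot be told apart. Nothing in the labels says that replicates were separate cultures, so the p-values measure only the spread between these samples, which may be technical.

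**Figure D1:**
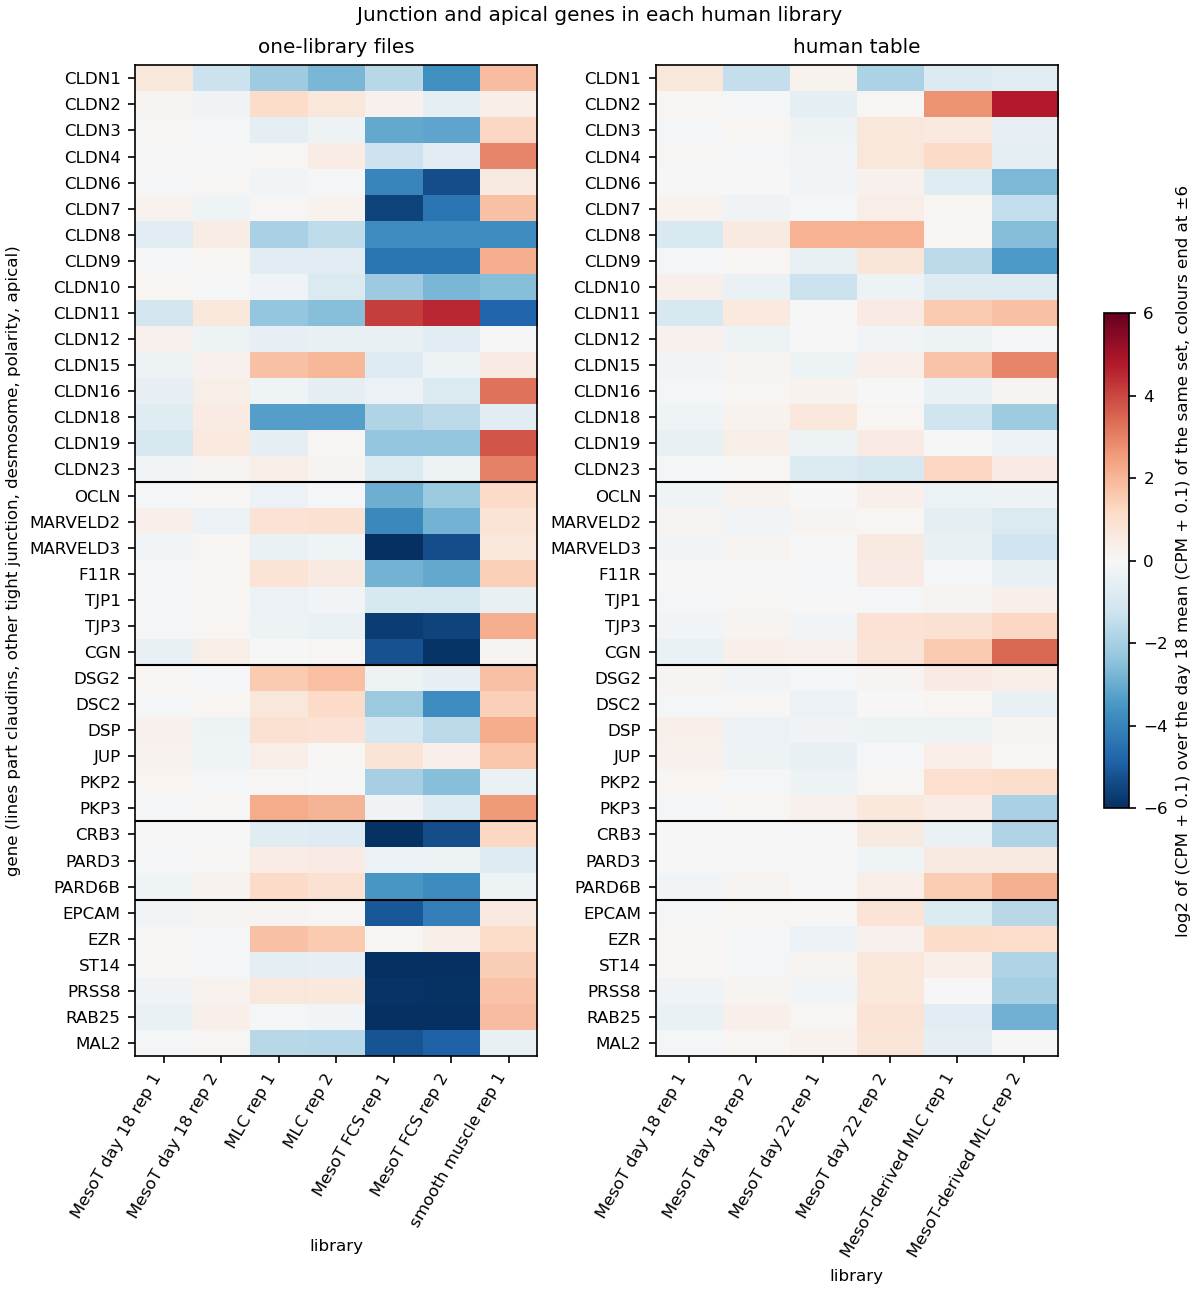
Each row is a gene and each column a library, with the one-library files on the left and the human table on the right. Colour is the log2 ratio of CPM + 0.1 to the day 18 mean of the same set, with colours ending at -6 and 6. Most rows are blue in both MesoT FCS libraries, where 24 genes were past the threshold below MesoT day 18, and the CLDN11 row is red there.

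Among the claudins, CLDN6, a claudin of embryonic epithelia, had 126 and 139 CPM in MesoT day 18 (replicates 1 and 2, as throughout) and 8.30 and 3.24 CPM in MesoT FCS. The log2 fold change was -4.51 ± 0.45 (SE, adjusted p = 0.0043). CLDN7, a claudin that binds EpCAM, had 22.2 and 16.4 CPM against 0.312 and 0.837 (-5.10 ± 0.45, adjusted p = 0.00347). Neither group overlapped the other for these genes, which also held for genes not past the threshold, such as DSG2. CLDN3, a sealing claudin of simple epithelia, had 2.35 and 2.19 CPM against 0.179 and 0.167 (-3.69 ± 0.44, adjusted p = 0.0060). CLDN4, which is sealing as well, had 32.2 and 30.2 CPM against 13 and 19.9 (-0.92 ± 0.26, adjusted p = 0.0441). In both MesoT FCS libraries CLDN4 lay below, but near, its day 18 values, and its call was lost in 3 of 11 alternatives (highest adjusted p 0.147). CLDN10, a pore-forming claudin, fell from 3.87 and 3.31 CPM to 0.714 and 0.447 (-2.61 ± 0.48, adjusted p = 0.0156), and its call was lost without MesoT FCS replicate 2 (adjusted p 0.0645). CLDN8 and CLDN9 had no count in either MesoT FCS library and 74 and 120 counts over the MesoT day 18 pair, so CLDN8 was at least 16.5-fold lower and CLDN9 at least 26.7-fold lower (floor of 3 counts over the group). The call of CLDN8 was lost without MesoT FCS replicate 1 (adjusted p 0.0544).

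CLDN11, which forms the tight junctions of Sertoli cells, myelin and the inner ear, moved the other way. It had 24.1 and 78.6 CPM in MesoT day 18, 925 and 1185 in MesoT FCS, 10.3 and 8.56 in MLC and 1.83 in smooth muscle. The 4 groups did not overlap. CLDN11 was higher in MesoT FCS than in MesoT day 18 with a log2 fold change of 4.36 ± 0.60 (adjusted p = 0.00779), and kept that call in all 11 alternatives. The MesoT day 18 replicates themselves differed 3.26-fold for this gene. The level summed over the 16 claudins was 992 to 1246 CPM in MesoT FCS and 304 to 330 CPM in MesoT day 18, while 7 claudins were lower.

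The other 8 claudins were not past the threshold in MesoT FCS against MesoT day 18. CLDN12, a broadly present claudin, had 51.0 and 35.6 CPM against 32.1 and 26.8 (adjusted p = 0.112). CLDN15, a pore-forming claudin of the gut, had 7.79 and 11.2 against 5.53 and 7.70 (adjusted p = 0.204). CLDN1, the sealing claudin of the epidermis, had 30.2 and 7.72 CPM in MesoT day 18 and 5.94 and 1.4 in MesoT FCS, with a 3.91-fold gap between the day 18 replicates (adjusted p = 0.0891). CLDN1 and CLDN16 lie over each other in the annotation, so reads may be shared between them. CLDN2, CLDN16, CLDN18, CLDN19 and CLDN23 stayed under 1.3 CPM in all libraries of MesoT day 18, MLC and MesoT FCS. CLDN19 had 24 counts over the MesoT day 18 pair and 0 in MesoT FCS, which makes it at least 5.35-fold lower, at an adjusted p of 0.0504.

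All 7 other tight junction genes were lower in MesoT FCS. TJP3, which encodes ZO-3, had 6.70 and 7.92 CPM in MesoT day 18 and 0.0446 and 0.0558 in MesoT FCS, with 440 against 2 counts. Its ratio was 147-fold, with a 95% exact binomial counting interval of 40.5 to 1218. MARVELD3 had 9.47 and 11.5 CPM against 0 and 0.167, and 630 against 3 counts (140-fold, 47.8 to 682). These intervals cover counting error only. CGN, which encodes the scaffold protein cingulin, had 20.9 and 36.2 CPM against 0.669 and 0.391 (log2 fold change -5.72 ± 0.42, adjusted p = 0.00246). MARVELD2, tricellulin of the corners between 3 cells, had 13.6 and 8.71 CPM against 0.669 and 1.45 (-3.41 ± 0.44, adjusted p = 0.00698). F11R had 49.3 and 56.6 CPM against 7.32 and 6.25 (-2.96 ± 0.20, adjusted p = 0.00226). OCLN, occludin, had 8.21 and 9.29 CPM against 1.07 and 1.79 (-2.62 ± 0.34, adjusted p = 0.00719). In each of CGN, MARVELD2, F11R and OCLN both MesoT FCS libraries lay below both MesoT day 18 libraries. The smallest change of these 7 was in TJP1, which encodes ZO-1, a scaffold that also binds adherens junctions. It had 219 and 262 CPM against 122 and 125 (-0.96 ± 0.18, adjusted p = 0.0154), and lost its call when either MesoT FCS library was left out (highest adjusted p 0.0709). When the table's counting of the day 18 samples was used, MesoT FCS kept its own counting, so that fit mixes 2 countings. The fold changes there were -4.14 for F11R, -4.01 for OCLN and -3.89 for MARVELD2. CLDN10 shrank from -2.61 to -1.73 with that counting (adjusted p = 0.0367). For the same day 18 samples the table held more F11R, OCLN and MARVELD2 and less CLDN10. These moves are therefore no added support for the changes.

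Desmosome genes split. DSC2, desmocollin 2, had 75.9 and 91.4 CPM in MesoT day 18 and 17.6 and 6.25 in MesoT FCS (log2 fold change -2.81 ± 0.50, adjusted p = 0.0138). PKP2, plakophilin 2, had 124 and 105 CPM against 29.1 and 19.4 (-2.24 ± 0.24, adjusted p = 0.00484). DSP, desmoplakin, had 553 and 382 CPM against 224 and 150 (-1.32 ± 0.29, adjusted p = 0.0246), and its call was lost without MesoT FCS replicate 2 (adjusted p 0.103). The other 3 were not past the threshold. DSG2, desmoglein 2, had 150 and 128 CPM against 113 and 99.8 (-0.38 ± 0.19, adjusted p = 0.177). PKP3, plakophilin 3, had 15.1 and 16.7 CPM against 13.6 and 9.21 (-0.48 ± 0.23, adjusted p = 0.158). JUP, plakoglobin, which also serves adherens junctions, had 311 and 223 CPM against 466 and 331 (0.58 ± 0.27, adjusted p = 0.157). The JUP values stood higher in both MesoT FCS libraries than in both day 18 libraries, within a gap that did not pass the test.

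Polarity genes split as well. CRB3, the membrane anchor of the Crumbs complex, had 6.15 and 5.91 CPM in MesoT day 18 and 0 and 0.0558 in MesoT FCS, with 364 counts against 1 (243-fold, counting interval 43.4 to 9636). PARD6B, an adaptor of atypical protein kinase C, had 14.6 and 20.0 CPM against 1.43 and 1.17 (log2 fold change -3.72 ± 0.28, adjusted p = 0.00263). PARD3, the scaffold of the PAR complex, had 78.5 and 87.2 CPM against 65.2 and 67.8 (-0.32 ± 0.15, adjusted p = 0.15) and was not past the threshold.

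Of the apical and epithelial surface genes, the matriptase gene ST14 had 26.7 and 23.4 CPM in MesoT day 18 and 0.0446 and 0 in MesoT FCS. Its counts were 1514 against 1, a ratio of 1012-fold with a counting interval of 181 to 39997. PRSS8, which encodes prostasin, a membrane protease that acts with matriptase, had 34.4 and 46.5 CPM against 0.580 and 0.558 (log2 fold change -6.14 ± 0.26, adjusted p = 0.0013). RAB25, an epithelial GTPase of recycling endosomes, had 15.3 and 25.3 CPM against 0.134 and 0, with 1216 counts against 3 (271-fold, counting interval 92.5 to 1316). EPCAM, the epithelial cell adhesion molecule, had 59.6 and 75.1 CPM against 1.87 and 3.85 (-4.57 ± 0.37, adjusted p = 0.00297). The groups did not overlap in any of the apical genes, EZR included, which was not past the threshold. The share of all genes whose groups did not overlap was not computed, so the lack of overlap is no added support. MAL2, a protein of transport to the apical membrane, had 35.4 and 40.4 CPM against 0.937 and 1.23 (-5.13 ± 0.25, adjusted p = 0.00154). These 5 genes were low in both MesoT FCS libraries and high in both MesoT day 18 libraries, and each kept its call in all 11 alternatives. EZR, ezrin, which links the apical membrane to actin, had 305 and 281 CPM against 309 and 373 (0.22 ± 0.20, adjusted p = 0.43).

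Other genes of the same structures, taken from lists of related genes, were counted beside them. In MesoT FCS against MesoT day 18, 8 of 17 tested other tight junction genes were lower and 1 higher, 3 of 10 other desmosome genes were lower, 2 of 12 other polarity genes were lower and 1 higher, and 6 of 13 other apical genes were lower and 2 higher. CXADR, a receptor at tight junctions, had 46.2 and 45.6 CPM against 8.52 and 9.60. LSR, angulin of the tricellular corners, had 30.7 and 25.0 CPM against 1.52 and 0.558. CRB2, a relative of CRB3, had 70.4 and 43.3 CPM against 4.55 and 1.51 (log2 fold change -4.21 ± 0.56, adjusted p = 0.0073). SCRIB, of the basolateral side, was higher at 181 and 179 CPM against 84.4 and 47.0 (1.45 ± 0.29, adjusted p = 0.0182). Of 8 smooth muscle markers, 2 were higher in MesoT FCS and none lower, with a summed level of 1790 to 7403 CPM against 284 to 1672. Of 8 fibroblast markers, 1 was higher and 3 were lower. Of 7 tested endothelial markers 4 were lower and 1 higher (summed level 53.5 to 71.5 CPM against 118 to 288), of 10 stratified epithelium markers 3 were lower (44.7 to 84.6 CPM against 96.8 to 166), and of 8 pluripotency markers 3 were lower (28.8 to 33.7 CPM against 61.9 to 142). The part of these cell types in the junction gene values was not tested.

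MLC differed from MesoT day 18 in fewer of the genes: 6 were higher and 3 lower, while 7.83% of all genes tested were higher and 16.8% lower (24.6% in either direction). The median log2 fold change was -0.06 over the 38 genes and -0.03 over all genes. The 9 of 38 called (23.7%) are close to the share of all genes. This comparison and the previous one share the MesoT day 18 libraries.

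**Figure D2:**
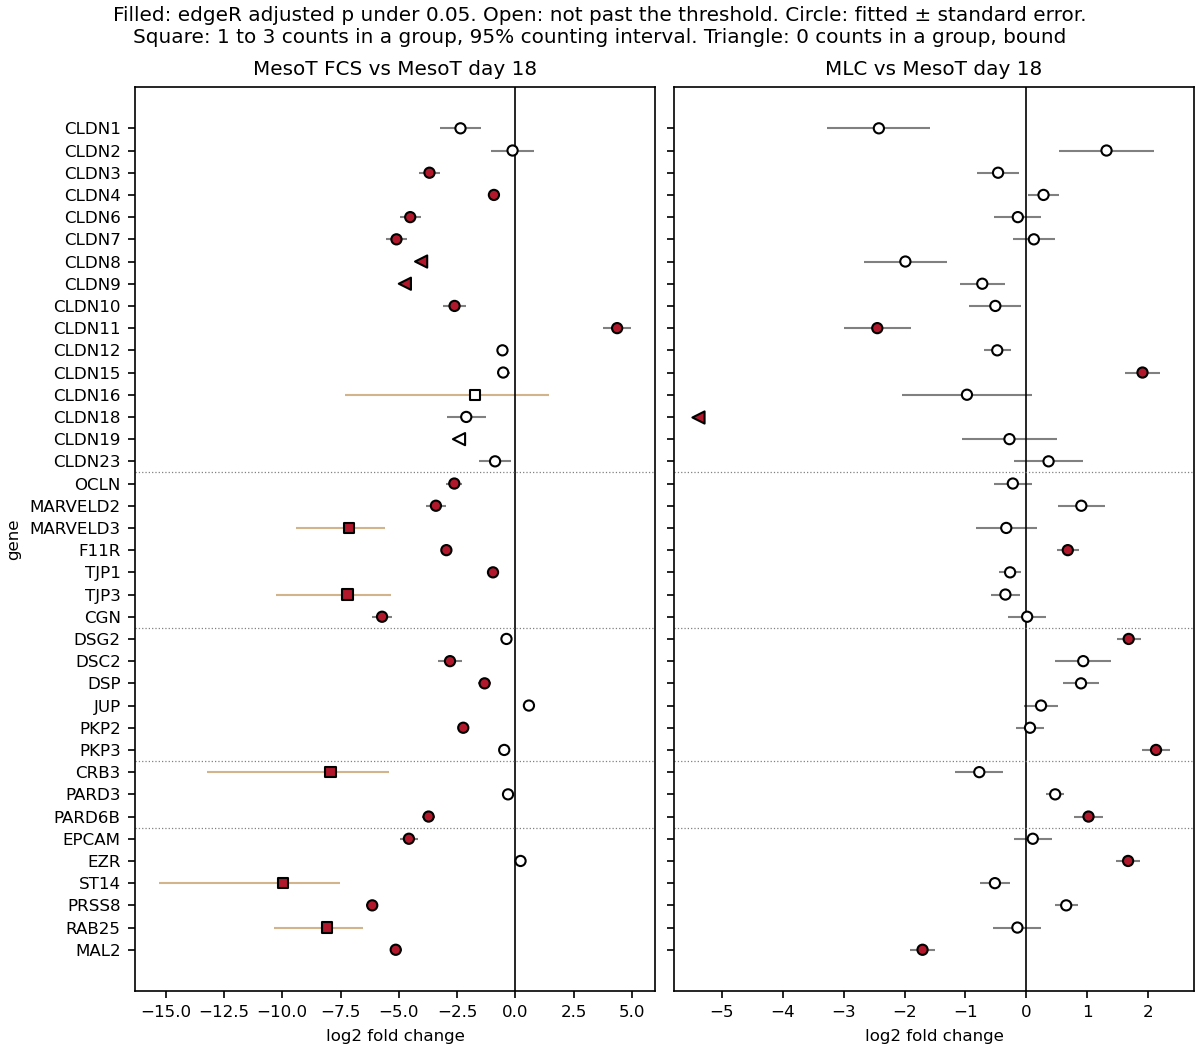
Log2 fold change of each gene against MesoT day 18 in the one-library files, for MesoT FCS on the left and MLC on the right, with scales that differ between the panels. Circles carry the standard error of the fit, squares a 95% counting interval where a group had 1 to 3 counts, and triangles a bound where a group had 0 counts. In MesoT FCS 24 genes are past the threshold below 0, and in MLC the genes past it lie on both sides.

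DSG2 had 409 and 482 CPM in MLC against 150 and 128 in MesoT day 18 (log2 fold change 1.68 ± 0.20, adjusted p = 0.00288). PKP3 had 74.4 and 64.8 CPM against 15.1 and 16.7 (2.13 ± 0.23, adjusted p = 0.00226). EZR had 986 and 878 CPM against 305 and 281 (1.67 ± 0.20, adjusted p = 0.0033). DSG2, PKP3 and EZR were the 3 genes whose call held in all 11 alternatives, and none of the 3 was past the threshold in MesoT FCS. The antisense RNAs DSG2-AS1 and EZR-AS1 overlap DSG2 and EZR, and strand use in the counting is not given in the sources used here, so reads of each pair cannot be told apart. PARD6B had 37.9 and 32.2 CPM against 14.6 and 20.0 (1.02 ± 0.24, adjusted p = 0.0305). CLDN15 had 32.9 and 38.4 CPM in MLC against 7.79 and 11.2 (1.91 ± 0.29, adjusted p = 0.0069). Its MLC level stood above that of each of the other groups, with MesoT FCS at 5.53 and 7.70 and smooth muscle at 13.4 CPM. F11R had 92.6 and 76.9 CPM against 49.3 and 56.6 (0.68 ± 0.18, adjusted p = 0.0406). When the day 18 samples were taken as counted in the table, the F11R change turned to -0.48 (adjusted p = 0.0738), so its direction rests on which counting is used, and 14 of the 38 genes passed, 8 higher and 6 lower.

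CLDN11, CLDN18 and MAL2 were lower in MLC. CLDN11 had 10.3 and 8.56 CPM against 24.1 and 78.6 (log2 fold change -2.45 ± 0.55, adjusted p = 0.0259). CLDN18, the claudin of stomach and lung epithelium, had 0 counts in MLC and 52 over the MesoT day 18 pair (0.483 and 1.26 CPM), at least 41.9-fold lower. MAL2 had 11.8 and 11.5 CPM against 35.4 and 40.4 (-1.70 ± 0.21, adjusted p = 0.00334), and MAL2-AS1 overlaps it. Without MLC replicate 1 the calls of CLDN11, CLDN18, PARD6B and F11R were lost and 5 of 37 genes tested were past the threshold, with 7.52% of all genes. Without MLC replicate 2 those 4 and CLDN15 and MAL2 were lost, and 3 of 38 were past it, with 7.48% of all genes.

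Of the 24 genes that were lower in MesoT FCS, 21 were not past the threshold in MLC against MesoT day 18, where F11R and PARD6B were higher and MAL2 was lower. Of all 3310 genes lower in MesoT FCS, 74.4% were not past it in MLC, so the 87.5% of these genes is read beside that share. Both comparisons share the MesoT day 18 libraries. EPCAM had 75.1 and 69.8 CPM in MLC (log2 fold change 0.11 ± 0.31 against MesoT day 18), CLDN6 119 and 121 (-0.14 ± 0.38), CLDN7 20.0 and 22.0 (0.12 ± 0.34) and CGN 27.9 and 29.6 (0.01 ± 0.32). None of these 4 passed the test, and the standard errors (0.31 to 0.38) leave room for changes of that size. DSP had 875 and 867 CPM (0.90 ± 0.29, adjusted p = 0.0731) and PRSS8 64.0 and 63.2 (0.65 ± 0.19, adjusted p = 0.0518). Both MLC libraries lay above both day 18 libraries for DSP and PRSS8, short of the threshold. When the table's counting of day 18 was used, DSP (adjusted p = 0.0485) and PRSS8 (adjusted p = 0.0120) were higher in MLC. OCLN was lower there (-1.59, adjusted p = 0.0111), but was not past the threshold within the set. Even with the median shift between the sets removed, the table counted OCLN 2.28 and 3.02 times as high in the same day 18 samples. The lower OCLN value is therefore not read as a change in MLC. With this counting 19 of the 24 were not past the threshold, and the share of all genes was not computed for it.

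**Figure D3:**
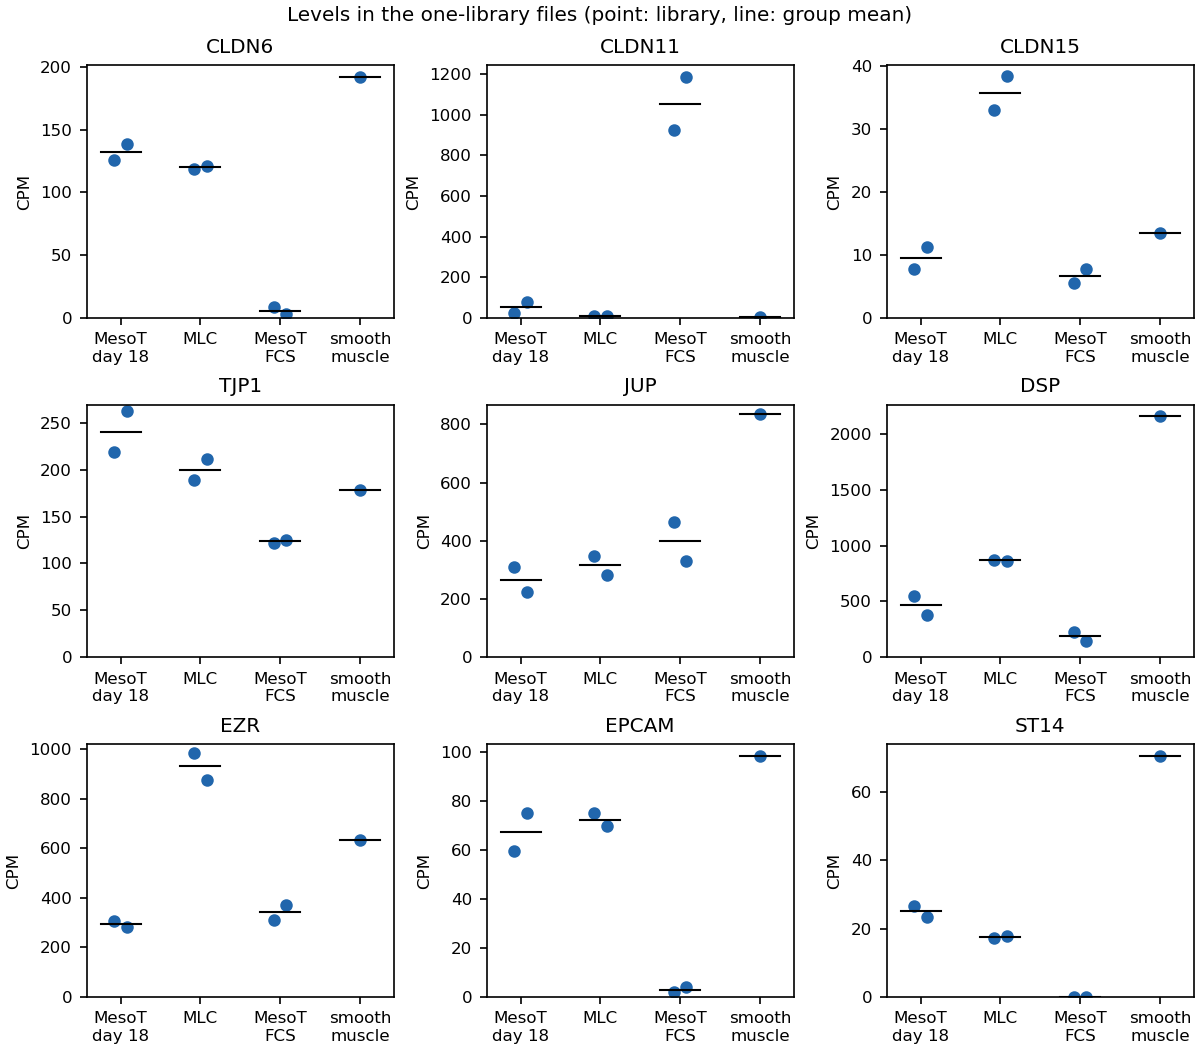
CPM of 9 of the genes in the 7 one-library files. Points are libraries, lines group means, each axis starts at 0 and has its own scale. CLDN6, EPCAM and ST14 lie near 0 in MesoT FCS, CLDN11 is high there, CLDN15 and EZR are highest in MLC, and DSP and JUP are highest in the smooth muscle library.

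Markers of gut and liver epithelium were also higher in MLC. Of 9 tested gut markers 5 were higher than in MesoT day 18, with a summed level of 36.8 to 59.0 CPM against 10.7 to 15.2, and 4 of these 5 passed the filter on low counts through MLC alone. Of 10 hepatocyte markers 6 were higher, at 67.5 to 151 CPM against 3.70 to 4.78, 3 of them having passed the filter through MLC alone, and in MLC none of either list stood at 0. Of 8 smooth muscle markers 5 were lower in MLC (summed level 130 to 149 CPM against 284 to 1672), as were 5 of 7 tested endothelial markers (124 to 166 CPM against 118 to 288). The part of these cell types in the junction gene values was not tested. In the related lists, 2 of 17 other tight junction genes were higher in MLC than in MesoT day 18 and 4 lower, 0 of 10 other desmosome genes passed, 3 of 12 other polarity genes were higher and 1 lower, and 5 of 13 other apical genes were higher. Of those 5 apical genes, 1 passed the filter on low counts through MLC alone, which leaves 4. Of the 4 lower tight junction genes, 1 passed it through MesoT day 18 alone. CRB2 had 520 and 409 CPM in MLC against 70.4 and 43.3 (log2 fold change 3.03 ± 0.51, adjusted p = 0.0102). NHERF1, a partner of ezrin, had 443 and 432 CPM against 87.4 and 51.0 (2.66 ± 0.47, adjusted p = 0.0119). Both genes were above both day 18 libraries in both MLC libraries.

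Set against each other, the epithelial MLC and the serum-passaged MesoT differed in 32 of the 38 genes, 30 higher in MLC and 2 lower. Of all genes tested 22.6% were higher in MLC and 26.3% lower (48.9% in either direction). The median log2 fold change was 2.91 over the 38 genes (2.42 when the 4 that lacked any count in MLC or in MesoT FCS were given their bound) and 0 over all genes. All 7 other tight junction genes, all 3 polarity genes and all 6 apical genes were higher in MLC, together with 5 of 6 desmosome genes and 9 of 16 claudins. EZR (1.45 ± 0.20, adjusted p = 0.00289), PARD3 (0.79 ± 0.15, adjusted p = 0.00741) and DSG2 (2.06 ± 0.20, adjusted p = 0.00093) passed in this comparison although they did not in MesoT FCS against MesoT day 18. JUP did not pass here (-0.34 ± 0.27, adjusted p = 0.333). CLDN11 was lower in MLC (-6.81 ± 0.67, adjusted p = 0.00097), and CLDN18 at 0 counts against 8 was at least 9.65-fold lower. This comparison shares its libraries with the previous ones and is no separate evidence for them. Of the 32 calls, 25 held in all 10 alternatives.

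In the single smooth muscle library 12 of the 38 genes were higher than in MesoT day 18 and 1 was lower, while 5.08% of all genes were higher and 3.58% lower (8.67% in either direction). The median log2 fold change was 1.22 over the 38 genes and -0.08 over all genes. The test assumes that this lone library varies like the others. DSP had 2163 CPM against 553 and 382 (2.21 ± 0.34, adjusted p = 0.0246), JUP 837 against 311 and 223 (1.65 ± 0.32, adjusted p = 0.0367) and PKP3 93.8 against 15.1 and 16.7 (2.56 ± 0.26, adjusted p = 0.0141). CLDN4 had 236 CPM against 32.2 and 30.2 (2.92 ± 0.30, adjusted p = 0.0141), and PRSS8 132 against 34.4 and 46.5 (1.71 ± 0.22, adjusted p = 0.019). In each of these genes the library stood above both MesoT day 18 libraries. CLDN9, CLDN23, F11R, TJP3, DSG2, EZR and ST14 were the other 7 that were higher. CLDN23 (2.64 CPM against 0.193 and 0.273) passed the filter on low counts through this library alone, and without it 11 of the genes were higher. CLDN16 passed the filter in the same way and was not past the threshold (adjusted p = 0.0586). CLDN11 was the gene that was lower (1.83 against 24.1 and 78.6 CPM, -4.81 ± 0.86, adjusted p = 0.0313).

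The calls kept in all 8 alternatives were those of CLDN4, TJP3, DSG2, DSP, PKP3 and PRSS8, and F11R stood at an adjusted p of 0.389 when the table's counting of day 18 was used. The 9 stratified epithelium markers above MesoT day 18 (7 without DSG3 and KRT6A) are in this same library. In the related lists, 6 of 10 other desmosome genes were higher there, among them DSG1, DSG3 and PKP1, desmosome genes of the epidermis. DSG1, DSG3, PKP1 and EVPL passed the filter on low counts through this library alone, which leaves 2 of the 6. DSG1 had 63.9 CPM against 0.129 and 0.171, DSG3 68.6 against 0.0322 and 0.0342, and PKP1 173 against 0.225 and 0. Of the other tight junction genes 2 of 17 were higher and 1 lower, of the other polarity genes 1 of 12 was higher, and of the other apical genes 2 of 13 were higher. What the stratified epithelium genes add to the junction gene values was not tested.

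In the human table, MesoT-derived MLC was compared with MesoT as the mean of days 18 and 22. Of the 38 genes 7 were higher and 0 lower, while 6.63% of the 22316 genes tested were higher and 3.32% lower (9.95% in either direction). DESeq2 called 8 higher and 7 lower, so the absence of lower genes depends on the tool. The median log2 fold change was -0.23 over the 38 genes and -0.05 over all genes, so the 7 genes that were higher went against the middle of the list. CLDN15 had 40.8 and 93.2 CPM against 10.8, 13.8, 9.96 and 15.4 in the day 18 and day 22 libraries (2.42 ± 0.36, adjusted p = 0.0215). CLDN2, a cation-pore claudin, had 1.88 and 8.07 CPM against 0.222, 0.183, 0.0999 and 0.218 (4.77 ± 0.66, adjusted p = 0.0194). It passed the filter on low counts through MesoT-derived MLC alone, the group where it was high, and without it 6 of the genes were higher. CGN had 107 and 386 CPM against 27.3, 44.5, 42.4 and 60.8 (2.52 ± 0.50, adjusted p = 0.0364). In CLDN15, CLDN2 and CGN both MesoT-derived MLC libraries were above all 4 MesoT libraries, and replicate 2 was the higher of the pair.

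PARD6B had 69.9 and 108 CPM against 21.7, 27.4, 24.5 and 32.6 (1.75 ± 0.23, adjusted p = 0.0187). PARD3 had 146 and 146 CPM against 97.0, 103, 96.8 and 84.4 (0.62 ± 0.14, adjusted p = 0.0479). Both genes of the PAR complex were thus above all 4 MesoT libraries. PKP2 had 275 and 282 CPM against 148, 125, 112 and 142 (1.08 ± 0.17, adjusted p = 0.0239). EZR had 806 and 783 CPM against 397, 345, 294 and 439 (1.11 ± 0.22, adjusted p = 0.037). PARD6B, PARD3, PKP2 and EZR had close replicates, at most 1.55-fold apart. CLDN15, PARD6B and EZR were also higher in MLC against MesoT day 18 (1.91, 1.02 and 1.67), where the control was the same day 18 samples counted anew. PKP2 (0.06 ± 0.23), CGN (0.01 ± 0.32) and CLDN2 (1.32 ± 0.79) did not pass there, and a difference between the ways of making MLC was not tested, since the sets were counted apart.

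None of these 7 calls held in all 11 alternatives. The count was 0 of 38 without MesoT day 22 replicate 1, without MesoT day 22 replicate 2 and without MesoT-derived MLC replicate 2, and over all genes it was 0, 182 and 0 in these fits. Without MesoT-derived MLC replicate 1 it was 5 of 38, 4 higher and 1 lower, and 309 over all genes.

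The MesoT-derived MLC replicates stood apart in the junction genes. Of 34 genes with a mean of at least 1 CPM, 12 (35.3%) were over 2-fold apart, against 6.78% of all genes at that level. PKP3 had 27 CPM in replicate 1 and 5.06 in replicate 2 (5.32-fold), RAB25 15.2 and 3.22 (4.72-fold), ST14 41.1 and 8.79 (4.67-fold), PRSS8 42.9 and 10.7 (3.99-fold) and CLDN6 88.5 and 22.3 (3.97-fold). CLDN4, CLDN7, CRB3 and CLDN3 were lower in replicate 2 as well, by 3.33-fold, 2.96-fold, 2.73-fold and 2.14-fold. CLDN2, CGN and CLDN15 were the 3 that were higher in replicate 2, by 4.28-fold, 3.61-fold and 2.28-fold. EPCAM had 44.6 and 24.6 CPM (1.81-fold apart), below all 4 MesoT libraries (72.0, 85.5, 83.2 and 137 CPM), at an adjusted p of 0.0501. By comparison 0 of 32 genes were over 2-fold apart between the MLC replicates of the one-library files (1.42% of all genes), 3 of 33 between the day 18 replicates there (17.6%) and 5 of 21 between the MesoT FCS replicates (10.8%). Between the day 22 replicates 5 of 36 were that far apart (8.25%).

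**Figure D4:**
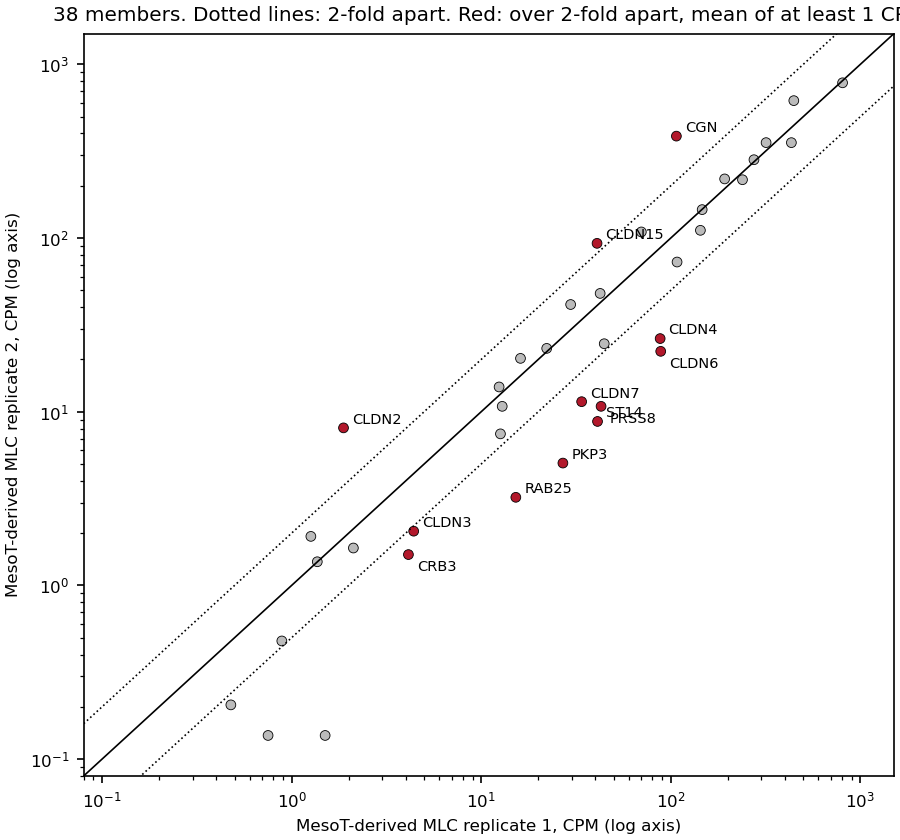
CPM of the 38 genes in MesoT-derived MLC replicate 1 (x axis) and replicate 2 (y axis), both on log axes, with the line of equality and dotted lines at 2-fold. The 12 named red points are over 2-fold apart with a mean of at least 1 CPM: 9 lie below the lines and 3 above, and grey points outside the dotted lines have a mean under 1 CPM.

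Gut markers summed to 52.5 to 257 CPM in the MesoT-derived MLC libraries against 3.06 to 7.84 over days 18 and 22 of MesoT, and 8 of 10 tested were higher than in MesoT, 6 of which passed the filter on low counts through this group alone. Hepatocyte markers summed to 123 to 272 CPM against 5.39 to 9.11, and 7 of 9 tested were higher, 4 of them having passed the filter in that way. CDH17, a gut cadherin, had 3.89 CPM in replicate 1 and 19.8 in replicate 2, and VIL1, the brush border protein villin, had 7.10 and 35. Replicate 2 was thus the one with more CDH17 and VIL1 and more CLDN2, CLDN15 and CGN, but 9 other junction genes were over 2-fold lower in it. Replicate values of the other gut and hepatocyte markers are not given here. The part of these cell types in the junction gene values was not tested. Of the related lists, 4 of 16 tested other tight junction genes were higher than in MesoT and 2 lower, 1 of 7 other desmosome genes, 3 of 12 other polarity genes and 5 of 13 other apical genes were higher. Of those 4 tight junction genes, 1 passed the filter on low counts through MesoT-derived MLC alone, which leaves 3. CRB2 had 519 and 536 CPM against 79.9, 48.6, 25.9 and 56.3 (3.36 ± 0.35, adjusted p = 0.0129). PODXL, podocalyxin of the apical surface, had 2585 and 3085 CPM against 402, 712, 443 and 722 (2.32 ± 0.33, adjusted p = 0.0204). LSR had 94.8 and 80.2 CPM against 37.9, 28.7, 27.6 and 36.7 (1.42 ± 0.19, adjusted p = 0.0193).

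Between day 22 and day 18 of MesoT edgeR called 0 of the 38 genes and 0% of 22316 genes. At an unadjusted p under 0.05 there were 0 of the 38 and 171 of all genes. Without MesoT day 18 replicate 2 these were 2 of the 38 and 2145 of all genes, still with 0 called after adjustment. DESeq2 and limma voom also called 0 of all genes after adjustment, with 1 of the 38 under an unadjusted p of 0.05 in each. CLDN8, a sealing claudin of the kidney, had 0.665 and 2.05 CPM at day 18 and 6.16 and 6.06 at day 22 (log2 fold change 2.17 ± 0.96). CLDN1 had 36.0 and 8.17 CPM at day 18 and 25.9 and 5.92 at day 22, low in replicate 2 at both times. CLDN11 had 33.5 and 96.5 CPM at day 18, 66.0 and 91.9 at day 22 and 192 and 219 in MesoT-derived MLC (1.52 ± 0.40 against MesoT, adjusted p = 0.0637). This rank of CLDN11 in the human table, with MesoT-derived MLC highest, is not that of the one-library files, where MLC lay below MesoT day 18.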

How the data were processed

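RNA was extracted in total, enriched for poly(A) RNA and sequenced, per the labels' protocols. The series used 2 kinds of Illumina sequencer, and which library ran on which was not used here. The submitters' processing notes name the build hg19, TopHat2 2.0.13, Bowtie2 2.2.9 and Subread 1.4.2 with featureCounts, without roles or order. For the annotation and strand setting behind the counts, the sources used here say nothing. The values are raw counts per gene as the authors deposited them: 7 files of 1 library each, and a human table of 6 libraries in which the day 18 samples appear again. Of the 18 samples, 11 human ones were used. The 4 mouse and 3 chromatin samples were not analysed here.

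Each set was normalised apart with TMM factors in edgeR 4.0.16 (R 4.3.3), after edgeR's filter on low counts by group. Genes were tested with edgeR's quasi-likelihood F test on group means over all libraries of a set (residual degrees of freedom 3), with Benjamini-Hochberg adjustment over all genes tested and a threshold of 0.05. CPM are counts per 1000000 of effective library size. The standard error is the fold change divided by the root of F. Folds against a group at 0 use a floor of 3 counts over the group. Alternatives were no filter, RLE factors, DESeq2 1.42.0, limma 3.58.1 with voom, a replicate block, the table's counting of day 18 in the one-library set, and each library left out. In the one-library set replicate numbers correlated weakly across groups (0.016 to 0.110).

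The 38 genes and all related and marker lists were chosen with earlier results of these data known. All 38 may be named. Genes of the related lists are named from the up to 4 with the smallest p among those past the threshold in a list, and markers where a result stands beside them. The added fit without the smooth muscle library was chosen after its stratified epithelium genes were seen. One gene of the related lists is not reported here.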

Additional observations from a re-analysis of the deposited data

How the results depend on the processing

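When the day 18 samples were taken as counted in the table, the count of genes past the threshold was 9238 for MLC against MesoT day 18 (main 5667), 12759 for MesoT FCS (main 6301) and 7935 for smooth muscle (main 1998), and 14 of the 38 genes passed for MLC (main 9). F11R reversed there to -0.48 in MLC. The other groups kept their own counting in these fits, which therefore mix 2 countings. DESeq2 called 4888 genes and 21 of the 38 for smooth muscle, and 4604 and 15 (8 higher, 7 lower) for MesoT-derived MLC (main 2220 and 7). With the replicate block the smooth muscle counts were 527 and 6 (main 1998 and 13). Same-numbered replicates deviated together for MesoT day 18 and day 22 (correlation 0.588) but not across the other groups, so the numbers were not taken to pair samples. The day 18 and day 22 libraries may therefore not be independent, though the main fits treat them as separate libraries. With the block, MesoT-derived MLC against MesoT had 2800 genes past the threshold, and of the 38 genes 7 higher and 1 lower. The block moved the other counts by less than 1.5 times. Leaving out 1 library at a time, the counts over all genes and over the 38 ran from 1714 to 6601 and 3 to 13 for MLC against MesoT day 18, from 2783 to 7845 and 22 to 26 for MesoT FCS, from 4966 to 11217 and 26 to 32 for MLC against MesoT FCS, from 2339 to 4293 and 11 to 15 for smooth muscle, and from 0 to 2996 and 0 to 6 for MesoT-derived MLC. For day 22 against day 18 both were 0 throughout, and the count at an unadjusted p under 0.05 ran from 226 to 2145 (306 with the block). The cause of these moves was not tested. Of the 86 calls of single genes, each kept its direction except that of F11R. Depth limits claudins under 1 CPM, whose groups often hold fewer than 100 counts, and 3 residual degrees of freedom limit each test.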
